A study of Drosophila melanogaster with 3 samples.

Results

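The 9 genes described here pattern the Drosophila leg: bowl, drm, sob and odd, which form the odd-skipped family, with Dll, dac, al, Lim1 and C15. They were chosen by name with earlier results of these data known, and they are 9 of 13968 protein-coding genes in the annotation. A peak was counted for a gene when its summit lay in the gene body or within 10 kb of it, on genome build dm6. By that rule 27 of 7279 peaks in replicate 1, 24 of 6769 in replicate 2 and 18 of 4608 in replicate 3 lay near a member, an average of 23.0 ± 4.58 (SD, n = 3). Summits lying within 150 bp of a neighbour were joined into loci, and 33 of 9014 loci lay near a member.

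The peaks came from chromatin immunoprecipitation with sequencing (ChIP-seq) of whole Drosophila melanogaster of the strain CG8119-GFP, at the prepupal stage and 1 day of age, with sex not collected. All animals carried an insertion that makes the CG8119 protein fused to eGFP, a fluorescent tag, and an antibody against the tag pulled down sonicated chromatin. The 3 samples are biological replicates of this single group, each from its own biosample of the same donor strain. No untagged or other second group was analysed here, so values are compared between replicates and with all loci or all genes. The tagged protein stands in for the native one, and in whole animals binding in leg cells and in other cells cannot be told apart. The ChIP-seq lists hold no expression values, so whether the 9 genes were active in these animals was not measured.

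The fly leg grows from an imaginal disc that is divided into rings along its proximal to distal axis, and each ring is defined by transcription factors. Dll, a homeodomain protein, marks the distal leg, and dac, a nuclear factor related to the Ski family, marks the middle. The homeodomain genes al, Lim1 and C15 (clawless) act together in the pretarsus, the claw-bearing tip, under signalling through the EGF receptor. The odd-skipped family encodes zinc finger proteins that are switched on by Notch signalling at the segment borders of the leg, where they take part in joint formation, and drm frees bowl from its antagonist lines. During the prepupal stage the disc everts and the leg elongates.

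The sequences below show the strongest locus of bowl, drm, sob and dac that had a summit in all 3 replicates. Each is 201 bp of the plus strand of dm6 around the locus centre, read from the RefSeq genome: chr2L:3771393-3771593 before the first bowl start, chr2L:3534558-3534758 in intergenic DNA before drm, chr2L:3588452-3588652 in an exon of the long non-coding RNA lncRNA:CR43823 before sob, and chr2L:16495270-16495470 in an intron of Tpr2 before dac. Capitals mark, on either strand, GAGAG as the core of GAGA factor sites, TAATTA as a homeodomain core, and 2 words chosen after the sequences were seen, CAGTG and the overlapping word AGTGTA. A run of CACTG is the first of these read on the minus strand.
bowl: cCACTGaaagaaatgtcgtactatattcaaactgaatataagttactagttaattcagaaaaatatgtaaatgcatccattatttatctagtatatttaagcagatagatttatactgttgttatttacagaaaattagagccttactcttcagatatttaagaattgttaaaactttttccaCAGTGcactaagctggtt
drm: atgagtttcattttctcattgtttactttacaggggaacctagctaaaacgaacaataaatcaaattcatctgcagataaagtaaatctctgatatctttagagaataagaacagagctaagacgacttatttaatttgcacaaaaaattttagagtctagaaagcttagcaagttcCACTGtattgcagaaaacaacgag
sob: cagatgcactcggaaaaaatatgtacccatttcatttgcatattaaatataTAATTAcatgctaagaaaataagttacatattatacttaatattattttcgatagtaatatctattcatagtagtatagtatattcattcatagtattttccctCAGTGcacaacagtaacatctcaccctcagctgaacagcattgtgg
dac: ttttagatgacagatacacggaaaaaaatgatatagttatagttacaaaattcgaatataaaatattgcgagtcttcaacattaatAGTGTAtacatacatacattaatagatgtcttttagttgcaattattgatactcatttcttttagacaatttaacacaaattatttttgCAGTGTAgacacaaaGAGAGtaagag

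A shared locus is one with a summit of all 3 replicates. Of the 33 loci near the members, 15 were shared, 6 had summits of 2 replicates and 12 had a summit of 1. The shared portion was 45.5% near the members, against 41.6% of all 9014 loci. In all, 5 of the 9 members had a shared locus in the body or within 10 kb (bowl, drm, sob, Dll and dac), beside 47.1% of all protein-coding genes. A shared locus within 500 bp of a transcript start was found at 2 of the 9 members, bowl and Dll, beside 9.06% of all protein-coding genes. These counts rest on 9 genes, and no test was run. The members' windows had a median length of 32.4 kb, against 22.2 kb for all protein-coding genes.

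**Figure D1:**
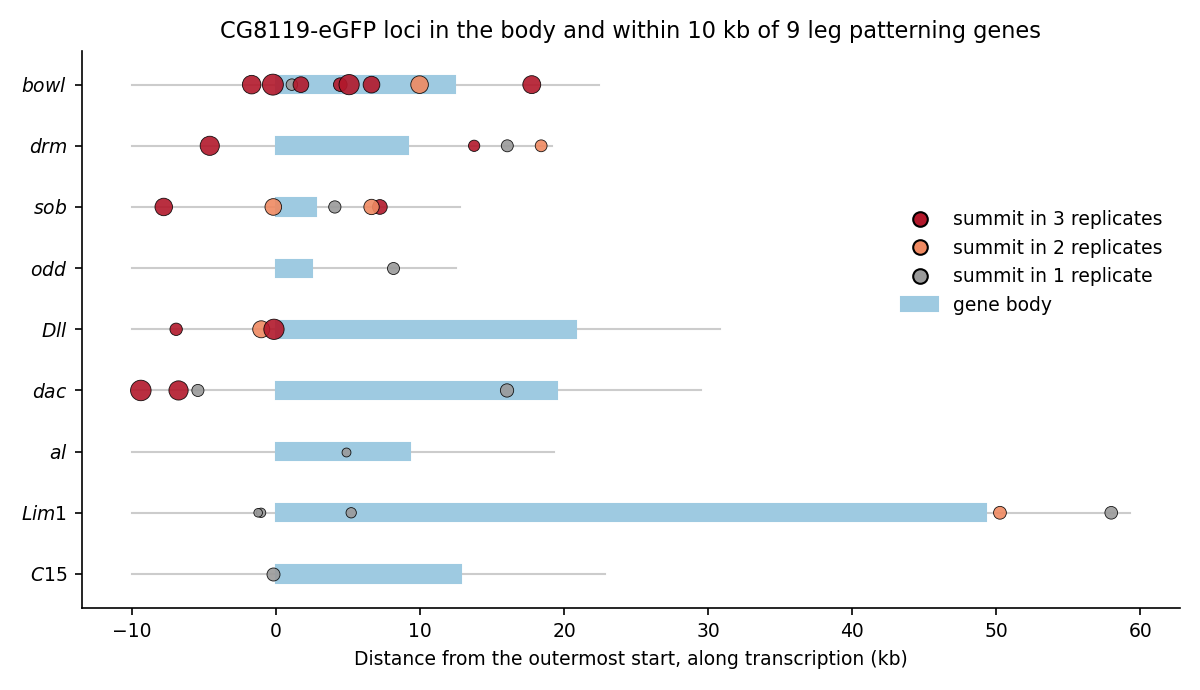
Positions of the 33 loci along the 9 member genes, in kb from the outermost start in the direction of transcription, with the gene body as a blue bar and the 10 kb on each side as a grey line. Colour gives the number of replicates with a summit and point area grows with the mean signal percentile. The 7 shared loci of bowl lie in and around its body, while odd, al, Lim1 and C15 have none.

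The peak signals are values of the authors whose scale is not stated, so each was ranked within its replicate's list, and a locus at a high percentile had a stronger signal than most peaks of that list. The median percentile of the shared loci near the members was 68.8, with a range of 19.3 to 99.2, against a median of 66.6 for all 3746 shared loci. Taken in each replicate alone, the members' median had an SD of 12.7 (n = 3). Of the 15, 8 were stronger than the median of all shared loci. Taking all peaks near the members, shared or not, replicates 1, 2 and 3 gave median percentiles of 53.0, 52.5 and 51.7. Peaks near the members, as a group, therefore sat close to the middle of the lists. The members' shared loci had a median close to that of all shared loci, and single loci stood far from it. Summits of a shared locus were spread over a median of 30.0 bp near the members and 32.0 bp over all shared loci.

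**Figure D2:**
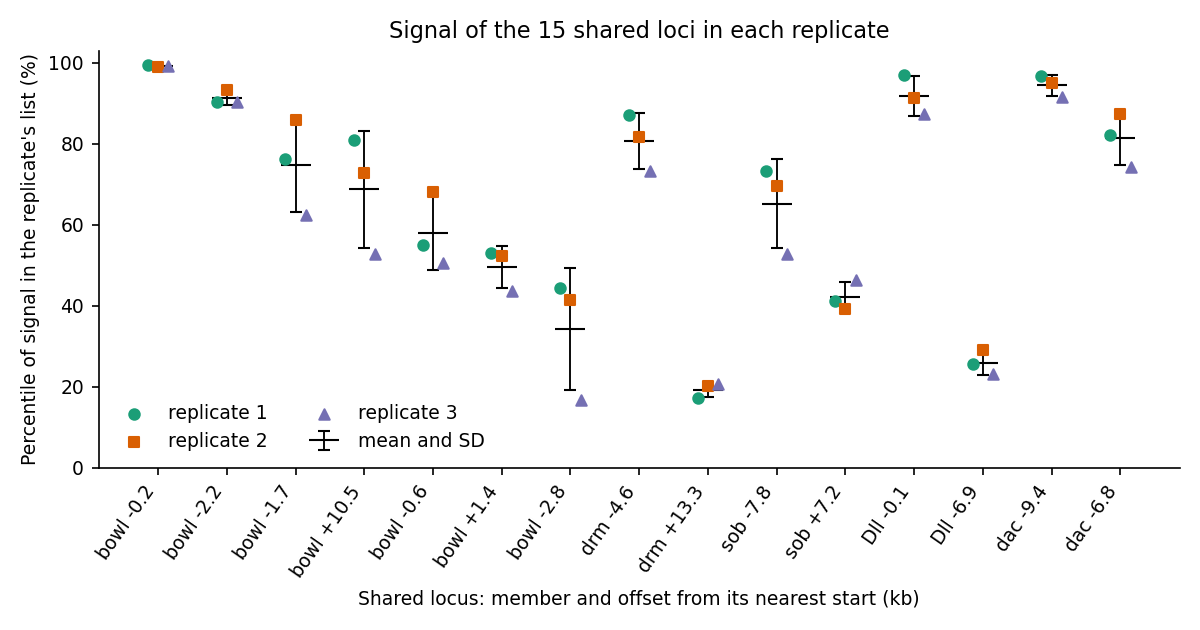
Signal percentile within each replicate's own list for the 15 shared loci, ordered by member, with coloured symbols for the replicates and black marks for the mean and SD (n = 3). Labels give the member and the offset in kb from its nearest annotated start. The bowl start locus stays between 99.0 and 99.5 in every replicate, and the weakest, near drm, between 17.2 and 20.6.

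Of the 15 shared loci, 11 lay near genes of the odd-skipped family, and the strongest was at bowl. bowl (FBgn0004893, chr2L:3771700-3784121, plus strand, 4 annotated starts) encodes a zinc finger protein that acts in leg joints. It had 8, 9 and 7 peaks in replicates 1, 2 and 3, which formed 9 loci, 7 of them shared. Those 7 make up 46.7% of the members' shared loci. A count of 7 or more shared loci in the window was reached by 95 protein-coding genes, or 0.680% of them, and the mean was 0.867 per gene. This share is not scaled to window length. The bowl window spans 32422 bp, against a median of 22.2 kb for all protein-coding genes, and 4 other protein-coding genes reach into it. The bowl count also falls when summits are joined within 50 bp, and the share was not recomputed for that setting. The density was 21.6 shared loci per 100 kb in the bowl window. Over all member windows, 319 kb in total, it was 4.71 per 100 kb, over those without bowl 2.80, and over the chromosome arms as a whole 2.72. Without bowl, the members' density was thus near that of the genome. The arm length includes stretches with no peak, such as all of Y and 3L from position 22879065 to 28110227.

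The strongest locus of all members lay 207 bp before the first bowl start, the sequence printed above. Its signals of 830, 624 and 604 in replicates 1, 2 and 3 placed it at rank 35, 66 and 39 of the lists. Its percentile was 99.2 ± 0.255 (SD, n = 3) and the 3 summits fell within 6 bp. It ranked 40th of 3746 shared loci, and 26th of the 1199 shared loci that lie within 500 bp of any start. All replicates thus placed this locus at the top of their lists.

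Inside the bowl body, 4 further loci were shared, all intronic, and 174 protein-coding genes (1.25%) had at least that many in the body. The strongest, 2155 bp before the nearest internal start, had signals of 278, 321 and 260 in replicates 1, 2 and 3 and a percentile of 91.3 ± 1.75. A locus 602 bp before an internal start had signals of 102, 132 and 98.2 and a percentile of 58.0 ± 9.12. The other 2 intronic loci were weaker, at 49.6 ± 5.17 and 34.2 ± 15.1. All but the strongest of these 4 had summits too far apart to be joined within 50 bp. An intronic locus 2735 bp after an internal start had summits in replicates 1 and 2, with signals of 133 and 119. In replicate 3 the ranked list held a peak there with a signal of 87.8 but an irreproducible discovery rate of 0.535. This rate, the IDR, is low for peaks that recur at a like rank in paired peak sets, and the thresholded lists stop at 0.01.

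Outside the body, 2 more shared loci fell in the bowl window, each closer to the start of another gene. One lay 1680 bp before bowl and 434 bp after the start of lncRNA:CR43704, with signals of 161, 216 and 119 and a percentile of 74.9 ± 11.8. Replicate 2 was the high one there. The other lay beyond the 3′ end of bowl in an intron of bark, which encodes a protein of tricellular junctions, 527 bp before a bark start. Its signals were 186, 146 and 102 in replicates 1, 2 and 3 and its percentile was 68.8 ± 14.4. Neighbouring shared loci of bowl were 614 to 11123 bp apart.

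drm, sob and odd lie together on 2L, with 41.5 kb between the starts of drm and sob and 67.5 kb between those of drm and odd. bowl starts a further 165 kb from odd. Between the drm and odd starts lay 4 shared loci, or 5.93 per 100 kb. A further 9 lay between the odd start and 500 bp before the bowl start, including the bowl window locus near lncRNA:CR43704.

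drm (FBgn0024244, chr2L:3539247-3548423, plus strand) encodes a small zinc finger protein that binds lines. It had 4, 2 and 3 peaks in replicates 1, 2 and 3, and 2 of its 4 loci were shared. The stronger, printed above, lay 4589 bp before drm and 3186 bp before lncRNA:CR44308. Its signals were 234, 185 and 147 and its percentile was 80.7 ± 6.97. The weaker, 4583 bp beyond the 3′ end, was the weakest shared locus of any member, with signals of 60.9, 63.6 and 66.3 and a percentile of 19.3 ± 1.83. Weak as it was, its place in the lists varied little between replicates.

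sob (FBgn0004892, chr2L:3578013-3580769, minus strand), a close relative of odd, had 5, 4 and 2 peaks in replicates 1, 2 and 3. Of its 5 loci, 2 were shared. The stronger, printed above, lay 7783 bp before sob, with signals of 147, 136 and 101 and a percentile of 65.2 ± 11.0. The other lay beyond the 3′ end, 1798 bp before lncRNA:CR43822, at a percentile of 42.2 ± 3.72. At the sob start itself, 179 bp upstream, replicates 1 and 2 had summits with signals of 128 and 92.2. The ranked list of replicate 3 held a peak there with an IDR of 0.287, so this locus was not shared.

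odd (FBgn0002985, chr2L:3604224-3606756, minus strand), the pair-rule gene that names the family, had a single locus from replicate 2. It lay in intergenic DNA beyond the 3′ end with a signal of 66.6, at percentile 23.8. Ranked peaks lay there in replicates 1 and 3 at IDRs of 0.377 and 0.0688. The nearest shared locus was 18196 bp from the odd start, closest to CG15418. The distance from a protein-coding gene to its nearest shared locus had a median of 12658 bp.

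**Figure D3:**
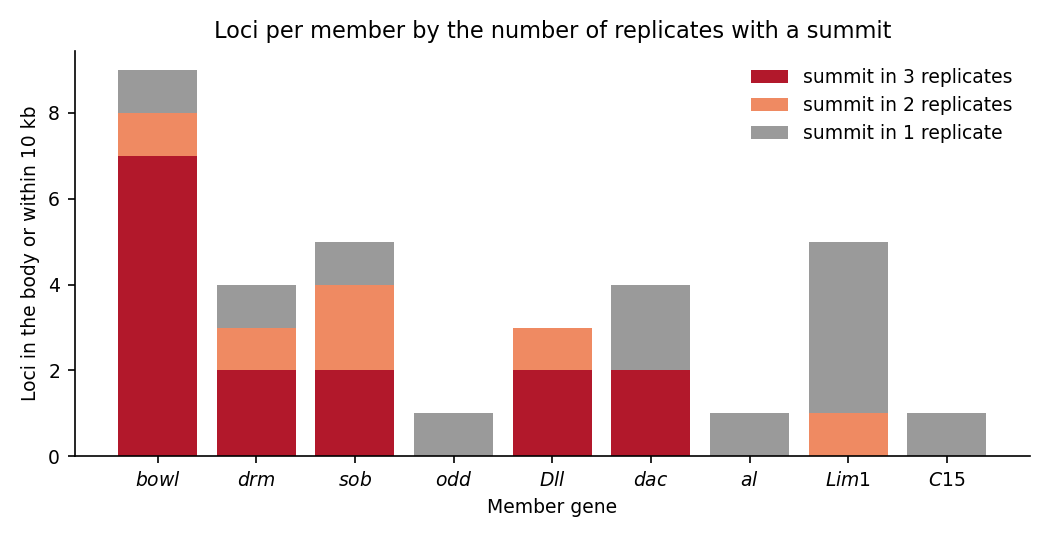
Number of loci in the body or within 10 kb of each member, split by the number of replicates with a summit there. bowl has 9 loci, 7 of them in all 3 replicates, while the 5 loci of Lim1 include none in all 3.

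Dll and dac, which set the distal and medial leg, had strong loci in different places. Dll (FBgn0000157, chr2R:24814822-24835667, plus strand) had 3, 3 and 2 peaks in replicates 1, 2 and 3. Its strongest locus lay 132 bp before the start with signals of 476, 281 and 226, or rank 209, 587 and 588. The percentile was 91.9 ± 4.97, and the summits fell within 6 bp. Replicate 1 was the highest by signal and by percentile. A second locus, 1016 bp before Dll, had summits in replicates 1 and 2, with signals of 132 and 99.5, and a ranked peak in replicate 3 at an IDR of 0.0417. The remaining shared locus, 6921 bp before Dll and 1424 bp before CG42851, was weak, at 26.0 ± 2.97. None of the 3 loci lay in the Dll body, which spans 20846 bp.

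dac (FBgn0005677, chr2L:16466512-16485998, minus strand) had 3, 3 and 2 peaks, and both its shared loci lay upstream, in introns of Tpr2, the neighbouring gene for a co-chaperone. The locus 9372 bp before dac, printed above, lay 1399 bp before a Tpr2 start. Its signals were 453, 367 and 283 in replicates 1, 2 and 3, at ranks 237, 335 and 383, and its percentile was 94.5 ± 2.57. It was second only to the bowl start locus among the 15. The other lay 6755 bp before dac and 1213 bp after a Tpr2 start, with signals of 193, 234 and 151 and a percentile of 81.4 ± 6.58. Which gene either locus serves was not measured. The body of dac held a single intronic locus from replicate 2, with a signal of 73.8.

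The dac locus at 9372 bp was also the shared locus nearest to the inner edge of the 10 kb limit. The nearest outside it lay 11238 bp from sob, close to lncRNA:CR44747, at a percentile of 23.5 ± 7.99. Between 10 and 20 kb from the body lay 5 shared loci at dac, 2 at odd and 1 each at bowl, drm, sob and Lim1, while Dll, al and C15 had 0 there. These are 10 distinct loci, since drm and sob share theirs, and 1 of the 2 at odd is the sob locus printed above, so 9 lay within 10 kb of no member.

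The 3 pretarsus genes had no shared locus in their windows. Of all protein-coding genes 47.1% had one, and the median number per gene window was 0. al (FBgn0000061, chr2L:378112-387439, plus strand) had 1 intronic locus, from replicate 3, with a signal of 55.4 at percentile 6.94. Ranked peaks lay there in replicates 1 and 2 at IDRs of 0.0929 and 0.0103, the second just past the 0.01 limit. The nearest shared locus was 35018 bp away, closest to AP-2alpha, which encodes a clathrin adaptor subunit.

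C15 (FBgn0004863, chr3R:21499986-21512814, plus strand) had 1 locus, from replicate 1, at 232 bp before its start with a signal of 72.2 at percentile 30.2. The ranked peaks there had IDRs of 0.0200 in replicate 2 and 0.740 in replicate 3. Its nearest shared locus was 82015 bp away, closest to InR, the insulin receptor gene.

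Lim1 (FBgn0026411, chrX:8756539-8805804, minus strand) is the longest member, and it had 3, 2 and 1 peaks in replicates 1, 2 and 3. Of its 5 loci, 1 had summits of 2 replicates and 4 of a single one. The locus of 2 replicates lay 987 bp beyond the 3′ end with signals of 75.2 and 67.2 in replicates 1 and 2, and a ranked peak of replicate 3 at an IDR of 0.0211. The single-replicate loci had percentiles between 5.55 and 27.9. All loci of the 3 pretarsus genes thus lay in the lower part of the lists, at percentiles of 33.2 or less, and none was shared. The single-replicate loci of the other members were also low, at percentiles of 20.6 to 32.0. Low percentiles were therefore not particular to the pretarsus genes.

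Where a locus near a member lacked a summit in some replicate, the ranked list of that replicate usually held a peak there at a higher IDR. This was so for 6 of the 6 missing entries of members' loci in 2 replicates, against 85.6% of 1919 over all such loci. For members' loci in 1 replicate it was so for 21 of 24 missing entries (87.5%), against 71.5% of 6698. A locus missing from a thresholded list was thus mostly still present in the longer list, and the depth behind each list is unknown.

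By position, 3 of the 15 shared loci near the members lay within 500 bp of the start of any gene, against 32.0% of all shared loci. Introns held 7 of the 15 (46.7%) against 49.4%, and intergenic DNA held 4 (26.7%) against 16.4%. The remaining one lay in an exon of a non-coding RNA. A member's own start was the nearest start for 6 of the 15, of which 5 were at bowl and 1 at Dll.

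Most of the 15 loci were rich in A and T. Their median GC content in 201 bp was 30.8%, against 41.5% in windows of the same length 500 bp to each side. Over all shared loci the values were 32.8% at the centre and 42.8% in the flanks. The bowl start locus had 27.4% and the strongest dac locus 25.9%. The Dll start locus differed from the other 14 with 64.7%. Among the 1199 shared loci within 500 bp of a start, 2 had a GC content at least that high, the Dll locus included.

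**Figure D4:**
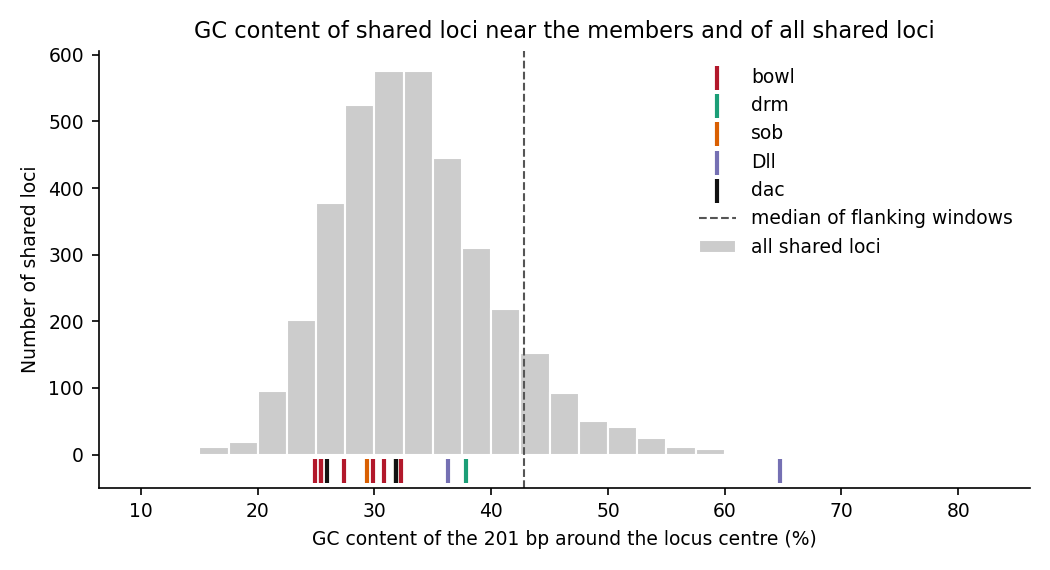
GC content in percent of the 201 bp around the centre of the 15 shared loci near the members (coloured ticks below the axis, by member) and of all 3746 shared loci (grey bars, number per bin). The dashed line marks the median of the flanking windows of all shared loci, 42.8%. Of the ticks, 14 lie left of that line, and the Dll start locus lies at 64.7%.

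Short words were sought on both strands in the same 201 bp. GAGAG, the core of GAGA factor sites, was in 6 of the 15 member loci (40.0%), against 23.1% of all shared loci and 25.7% of the windows flanking all shared loci. The windows flanking the members' own loci held it in 11 of 30 cases (36.7%), so it was about as common beside these loci as at them. The loci at the Dll start, at 2 places in the bowl introns and in the Tpr2 intron printed above were among the 6. TAATTA, a homeodomain core, was in 4 of 15 (26.7%), against 17.8% of all shared loci and 12.4% of their flanks, and it was in 3 of the 30 member flanks. CAGTAGC, a word of the odd-skipped family's own proteins, was in 0 of 15 and in 1.33% of all shared loci. Also in 0 of 15 were TATCGATA, the word of DREF and BEAF-32, which was in 0.641% of all shared loci, and the E-box CACGTG, which was in 1.33%. The Zelda word CAGGTA was in 0 of 15 against 3.07%, and the repeat ACACACA in 0 of 15 against 6.94%.

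A pair of further words was chosen after the sequences were seen, so their counts only describe. CAGTG was in 9 of 15 member loci (60.0%), against 45.7% of all shared loci and 30.8% of their flanks, and it was in 9 of the 30 member flanks. It was in the strongest locus of each of bowl, drm, sob, Dll and dac, and the bowl and Dll start loci held 2 copies each. AGTGTA was in 2 of 15 (13.3%), one at drm and one at dac, against 18.5% of all shared loci and 6.66% of their flanks, and it was in 3 of the 30 member flanks. A word is a run of letters and not a measured binding site.

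The 9 members were set beside 37 other leg patterning genes listed by role. Of these, 24 (64.9%) had a shared locus in the body or within 10 kb, beside the 47.1% of all protein-coding genes given above. Their windows had a median length of 42.2 kb, longer than the 32.4 kb of the members and the 22.2 kb of all protein-coding genes, and the part of length in the count was not tested. Genes of the signalling pathways had one in 11 of 12 cases and genes of the joints, most of them of the Notch pathway or downstream of it, in 7 of 10. Proximal genes had one in 2 of 4 cases and distal genes in 4 of 11.

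The most shared loci, 6 each, were near hth, a homeodomain gene of the proximal leg, fng, which encodes a glycosyltransferase that modifies Notch, ptc, the Hedgehog receptor gene, and Egfr, the EGF receptor gene. bab1, a BTB-domain gene of the tarsus, had 5. These counts are not scaled to window length, which was 152 kb for hth, 84.7 for bab1, 57.6 for Egfr, 43.6 for fng and 35.6 for ptc. The bowl window was 32.4 kb, and btd had 4 shared loci in 23.4 kb. No gene in the list reached the 7 of bowl. The strongest locus near Egfr, 1839 bp after a start of it, had percentiles of 97.7, 95.4 and 96.1 in replicates 1, 2 and 3.

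At starts, 2 of the 37 genes (5.41%) had a shared locus, against 9.06% of all protein-coding genes. Without replicate 3 it was 5 of the 37, against 12.6% of all protein-coding genes, so the count rests on that replicate's list. One was Poxm, a paired-box gene, with a locus 480 bp upstream at percentiles of 95.4, 95.8 and 94.8. The other was btd, a zinc finger gene that acts upstream of Dll in the leg, with a locus 175 bp upstream at 52.1, 42.4 and 53.0. The bowl start locus, at 99.2 ± 0.255, was thus higher in its lists than any start locus of the other leg patterning genes. lin, the gene for the lines protein that drm binds and that antagonises bowl, had no shared locus in its window.

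**Figure D5:**
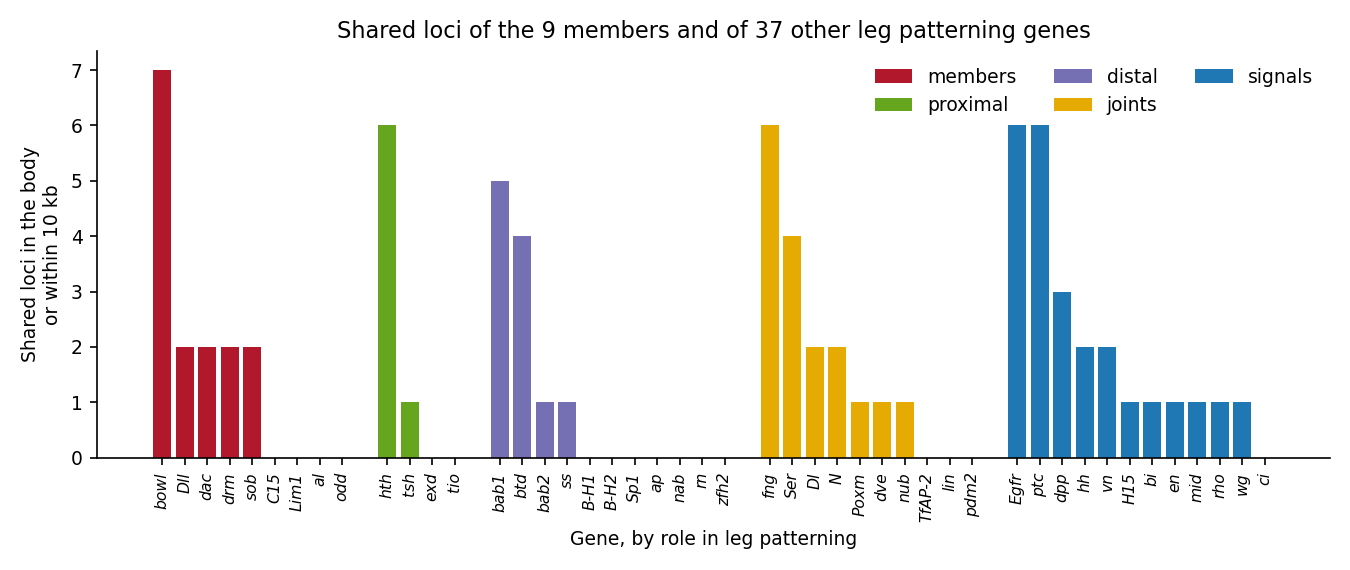
Number of shared loci in the body or within 10 kb of the 9 members (red) and of 37 other leg patterning genes, coloured by role. bowl has 7, hth, fng, ptc and Egfr have 6 each, and 4 of the members have 0. Counts are not scaled to window length.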

How the data were processed

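ChIP-seq peaks of 3 biological replicates of whole CG8119-eGFP prepupae were used, with groups and replicate numbers per the labels. Each replicate has a deposited ranked peak list and a shorter thresholded list on the genome build dm6, as the README texts of the deposit state. The signal deposited for a peak has no stated scale and was used only to rank peaks within a list. The score of each deposited peak is a scaled IDR, and its lowest value in the thresholded lists was 830, an IDR of 0.01. For every ranked peak the authors also gave the −log10 of its global IDR. Which aligner and peak caller were used is not given in the sources used here. No read counts were at hand, so depth is unknown, and list length alone does not give it.

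Summits of the thresholded lists were joined within 150 bp, and loci to which every replicate gave a summit were called shared. Gene models came from Ensembl release 115 and the genome sequence from RefSeq, both of the build of the files. At every locus the strength is the mean over replicates of the signal percentile, with its SD. Of the scripts (Python 3.11.15, pandas 2.3.3, numpy 2.4.6, matplotlib 3.10.9), only the steps that form loci and count them in a window were tested. That test used simulated summits of sites spaced far apart. With 1 group no test was run, and each count stands beside the same count over all loci or protein-coding genes. The 9 members, the list of 37 genes and the words were chosen with earlier results of these data known. Named with values were all members, shared loci at their starts, the strongest shared locus of each, the 10 strongest of all members, listed genes with a shared locus at a start and the 5 with the most shared loci. Other loci described here were chosen after their values were seen. Alternatives changed the replicates, the join distance, the lists, the flank and the start window.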

Additional observations from a re-analysis of the deposited data

Results flagged for a closer look

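The conservative thresholded list of the whole series, made from the reads of all 3 replicates together per the README texts, was not used in the counts above. It held 41 peaks near the members of 10370 in all, and 11 of the 41 lay more than 150 bp from every locus of the replicate lists. That is 26.8% of the 41, against 28.2% of the whole list, so the members had no larger part of such peaks. Of the 11, 2 each were near bowl, sob, dac and C15, and 1 each near odd, drm and al. C15 had 3 peaks in this list, al 2, odd 2 and Lim1 2, and the highest percentile in the list among those of C15 was 37.3, of al 45.5, of odd 42.5 and of Lim1 52.5. No control sample was analysed here.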

How the results depend on the processing

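The flank, the start window and the list moved the counts most, and the cause was not tested beyond the smaller or larger span that each covers. With the gene body alone, peaks near members averaged 6.0 in place of 23.0, shared loci numbered 4 in place of 15, members with one 1 in place of 5, the median percentile 53.8 in place of 68.8, the density 2.89 in place of 4.71 per 100 kb, and listed leg genes with a shared locus 14 in place of 24, while 9.58% of protein-coding genes had one in the body. With a flank of 20 kb, peaks averaged 35.7 and shared loci numbered 24. In the series-wide conservative list, 41 peaks lay near members, all 9 members had one and 5 had one at a start, while 71.6% of protein-coding genes had one and 21.6% had one at a start. With a start window of 200 bp, 1 member and 1 listed gene had a shared locus at a start, and with 1000 bp 6 listed genes did, beside 5.05% and 11.6% of protein-coding genes. The count of 2 listed genes at starts was 1 with summits joined within 50 bp, 1 in the stronger 50% of each list, 5 with summits of at least 2 replicates and 2 to 5 with a replicate left out, the 5 without replicate 3. In the stronger 50% of each list, 5.95% of protein-coding genes had one at a start. For summits joined within 50 bp that share was not computed. Lim1 joined the members with a locus in the window, and sob those with one at a start, without replicate 3 or with summits of at least 2 replicates. Among protein-coding genes, 56.9% and 59.5% then had one in the window and 12.6% and 13.7% at a start. Lim1 also joined at an IDR of 0.05 or less, where 53.5% of protein-coding genes had one. The other 88 recomputed values kept within 1.5 times or 1 SD of those reported. Among them, shared loci near the members numbered 11 in place of 15 with summits joined within 50 bp. Those lost were the bowl intronic loci at percentiles of 58.0, 49.6 and 34.2 and the sob locus at 42.2. The counts and density of bowl thus depend on the join distance. For the median percentile, the SD was 12.7 and the values within it ran from 60.8 to 81.1. The flanks for peaks per replicate and all alternatives for single start loci were chosen after seeing the data. No paired analysis was possible because the series has 1 group. Depth is unknown, so weak loci missing from a list may be undetected.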
